A study of Mus musculus with 6 samples.

Results

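The 9 genes described here encode enzymes and 1 carrier around which macrophage metabolism is known to turn: Irg1 for itaconate synthesis, Nos2, Arg1, Arg2 and Ass1 for the use of arginine, Sod2 for superoxide, and Cs, Ogdh and Slc25a1 for the citrate and succinate branch points of the tricarboxylic acid (TCA) cycle. They were chosen by name because Irg1 differed strongly between the groups of these libraries, and all 9 were found among the 24062 genes of the deposited count table. RNA sequencing was performed on mouse hematopoietic cells that were lineage-negative, which means depleted of cells with mature blood markers, and that had been transformed by a retrovirus carrying the MLL-AF9 fusion, an oncogene found in acute myeloid leukemia. The A20 KO group (3 libraries) came from A20f/f Rosa Cre-ER mice, in which tamoxifen activates Cre to remove the floxed part of A20, and the A20 WT group (3 libraries) came from A20+/+ Rosa Cre-ER mice. Both groups therefore carried Cre-ER and MLL-AF9, both grew with human IL-6, mouse IL-3 and mouse SCF at 10 ng/mL each, and both received 1 µM 4-hydroxytamoxifen for 48 h. The question was how loss of A20, an inhibitor of NF-κB signalling encoded by Tnfaip3, altered the transcriptome. The labels do not say whether replicates were separate cultures or animals, and if they were not, p-values reflect library-to-library spread that may be technical; the ages of the mice were not given in the sources used here.

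In activated macrophages, the TCA cycle is partly diverted: citrate leaves the mitochondrion for the cytosol, and aconitate, made from citrate, is decarboxylated to itaconate by the Irg1 product. Itaconate inhibits succinate dehydrogenase, modifies Keap1 and thereby releases the antioxidant factor Nfe2l2 (NRF2). Arginine is a substrate of both inducible nitric oxide synthase (Nos2) and arginase (Arg1, Arg2), and these routes are the textbook contrast between inflammatory and alternatively activated macrophages. Irg1, Nos2 and Sod2 are known targets of NF-κB and interferon signalling in macrophages, and Arg1 of STAT6.

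The libraries held 16113320 to 25415274 counted reads. Several facts of the whole data set bear on every value below. Tnfaip3 itself was higher in the KO-labelled libraries, with 100.1, 74.1 and 79.1 CPM against 7.39, 8.67 and 8.24 CPM in WT-labelled libraries (log2 fold change 3.38, SE 0.17), where CPM is the TMM-scaled read count relative to library size. Counts are per gene and not per exon, so this total does not measure the deletion, and the groups are named here by their labels only. The donors differed in sex by their transcripts (Ddx3y 83.3 ± 5.43 CPM in KO-labelled and 0.467 ± 0.417 CPM in WT-labelled libraries, SD, n = 3 each), so that genotype label and sex cannot be told apart. In each group replicate 1 differed from the other replicates far more than these did from each other, with Gapdh at 2716, 254 and 248 CPM in KO-labelled and 2645, 181 and 167 CPM in WT-labelled libraries, and members with enough reads are therefore also given within replicate 1 and within replicates 2 and 3. KO-labelled replicates 2 and 3 were the closest pair (chi-square per degree of freedom 2.42, against 26.2 for WT-labelled replicates 2 and 3). That is still beyond sampling noise, and they were counted as separate libraries, but this does not make them independent samples. With replicates 2 and 3 of each group summed, 8.44% of tested genes passed an adjusted p under 0.05 by edgeR, against 27.3% in the main fit.

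The labelled cell type was checked against marker genes. Hematopoietic and progenitor markers were present in all libraries, but 3 of 5 were lower in the KO-labelled libraries: Kit averaged 102 CPM against 353 CPM, Cd34 1.63 against 613 CPM and Spn 237 against 580 CPM in KO-labelled and WT-labelled libraries. Summed over the 5 genes the range was 934 to 991 CPM in KO-labelled and 1955 to 2055 CPM in WT-labelled libraries. Of 9 macrophage and monocyte markers 7 were tested, of which Csf1r and Cd14 were called higher and Mertk lower; C1qa had no read in any KO-labelled library. Their summed level was 4639, 2830 and 2821 CPM in KO-labelled replicates 1, 2 and 3 and 1138, 4721 and 3218 CPM in WT-labelled replicates 1, 2 and 3, so WT-labelled replicate 1 was the lowest. Neutrophil markers summed to 90.0 to 185 CPM in KO-labelled and 538 to 888 CPM in WT-labelled libraries (1 of 5 tested higher, 2 lower), mast cell and basophil markers to 8.65 to 11.4 CPM in KO-labelled and 75.8 to 145 CPM in WT-labelled libraries (2 of 3 lower), and dendritic cell markers to 2.57 to 5.68 CPM in KO-labelled and 21.8 to 44.9 CPM in WT-labelled libraries (1 of 2 lower). These sums rest on few genes. In WT-labelled libraries Mmp8, Elane and Mpo made up nearly all of the neutrophil sum. Gata2 made up most of the mast cell and basophil sum, and Flt3 and Itgax nearly all of the dendritic cell sum. Ngp (73, 80 and 64 reads in KO-labelled, 0, 3 and 0 in WT-labelled libraries) and Camp (15, 13 and 7 against 1, 0 and 0) ran the other way, and S100a8, S100a9 and Ltf overlapped. Ms4a1, Pax5, Cd3e, Cd8a, Hba-a1, Hbb-bs, Fcer1a, Tpsb2, Siglech and Cd209a had no read in any library, and T and NK cell markers summed to at most 4.73 CPM. Markers of B cells (at most 0.173 CPM in sum), eosinophils (at most 0.406 CPM), erythroid cells (at most 1.26 CPM) and stroma (at most 1.61 CPM) were near 0. The part of these markers in the results below was not tested. In these bulk libraries fewer cells of a type and less RNA per cell cannot be told apart.

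The sequences just upstream of the RefSeq starts of 4 genes are shown. These are the 3 members called higher in the KO-labelled libraries (Irg1, Sod2, Slc25a1) and, for comparison, 1 member whose groups overlapped (Cs). They are the 250 bases before the RefSeq gene start on GRCm38.p6, read 5′ to 3′ on the gene's strand. RefSeq windows were found for 6 of the 9 members, not for Nos2, Arg1 and Arg2. The windows are chr14:103046762-103047011 (plus strand) for Irg1, chr17:13007589-13007838 (plus) for Sod2, chr16:17928220-17928469 (minus) for Slc25a1 and chr10:128337477-128337726 (plus) for Cs. The gene positions given below are from the GENCODE annotation, whose starts can differ from those of RefSeq. The Sod2 window lies wholly inside the GENCODE gene, which starts at 13006846. The Irg1 window runs past the GENCODE start at 103046977, so its last bases lie inside that gene. Capitals mark exact matches to the NF-κB consensus GGGRNNYYCC on either strand, where R is A or G, Y is C or T and N is any base. Shorter or inexact sites were not searched for.
Irg1: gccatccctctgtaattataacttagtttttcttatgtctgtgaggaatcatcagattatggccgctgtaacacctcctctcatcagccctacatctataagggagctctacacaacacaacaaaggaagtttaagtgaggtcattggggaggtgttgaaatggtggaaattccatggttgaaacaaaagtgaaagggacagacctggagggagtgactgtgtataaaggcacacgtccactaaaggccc
Sod2: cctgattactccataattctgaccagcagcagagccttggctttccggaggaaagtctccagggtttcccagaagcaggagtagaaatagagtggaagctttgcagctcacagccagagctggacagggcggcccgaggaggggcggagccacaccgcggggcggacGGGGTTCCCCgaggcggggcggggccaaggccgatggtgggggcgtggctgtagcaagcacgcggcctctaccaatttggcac
Slc25a1: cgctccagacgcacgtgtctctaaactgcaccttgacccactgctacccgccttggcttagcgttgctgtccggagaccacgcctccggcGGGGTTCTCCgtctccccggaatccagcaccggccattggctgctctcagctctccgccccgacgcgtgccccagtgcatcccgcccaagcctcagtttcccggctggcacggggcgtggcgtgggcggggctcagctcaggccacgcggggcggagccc
Cs: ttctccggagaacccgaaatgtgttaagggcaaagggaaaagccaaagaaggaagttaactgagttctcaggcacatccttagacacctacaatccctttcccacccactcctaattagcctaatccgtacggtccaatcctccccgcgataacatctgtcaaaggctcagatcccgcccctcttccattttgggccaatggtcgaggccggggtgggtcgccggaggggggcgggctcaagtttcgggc

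The Sod2 window held 1 NF-κB match, GGGGTTCCCC, 83 to 74 bases before the start, which reads as a match on both strands. That of Slc25a1 held GGGGTTCTCC, 160 to 151 bases before the start. The Irg1 and Cs windows held none. Of the members not shown, Ogdh, whose groups overlapped, held the match GGAGAGCCCC in 1 of its 6 windows (chr11:6291920-6292169), 135 to 126 bases before that start on the minus strand, and Ass1 held none. Matches were thus found in members with and without a called difference. Over all 32851 mouse windows of this length 7.25% held such a match. Of the other motifs searched on both strands, the STAT site TTCNNNGAA (in 7.02% of windows) was found in Sod2 as TTCCCAGAA, 185 to 177 bases before the start. The hypoxia motif ACGTG (16.6% of windows) was found in Irg1, 18 to 14 bases before the start on the minus strand, and in Slc25a1. The interferon-stimulated response element (2.98%), the AP-1 motif TGANTCA (6.75%) and the antioxidant motif TGACNNNGC (10.2%) were in none of these 4 windows. A match is only a run of letters, and its absence from a window of this size says nothing about binding of a factor to the gene.

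Of the 9 members, 6 passed the low-count filter, and Nos2, Arg1 and Ass1 did not. With edgeR's quasi-likelihood test, 3 of the 6 were called (Irg1, Sod2 and Slc25a1, all higher), beside 27.3% of all 12126 tested genes. The KO-labelled libraries lay above every WT-labelled library for 4 of the 6, beside 24.1% of tested genes, and the groups overlapped for Cs and Ogdh. Irg1 passed the filter only through its KO-labelled libraries, and Arg1, read mostly in WT-labelled libraries, did not pass it. The shares of members called or not overlapping thus depend in part on the filter and on the choice of members. Because the members were chosen in this contrast, their differences are given as a description without p-values.

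**Figure D1:**
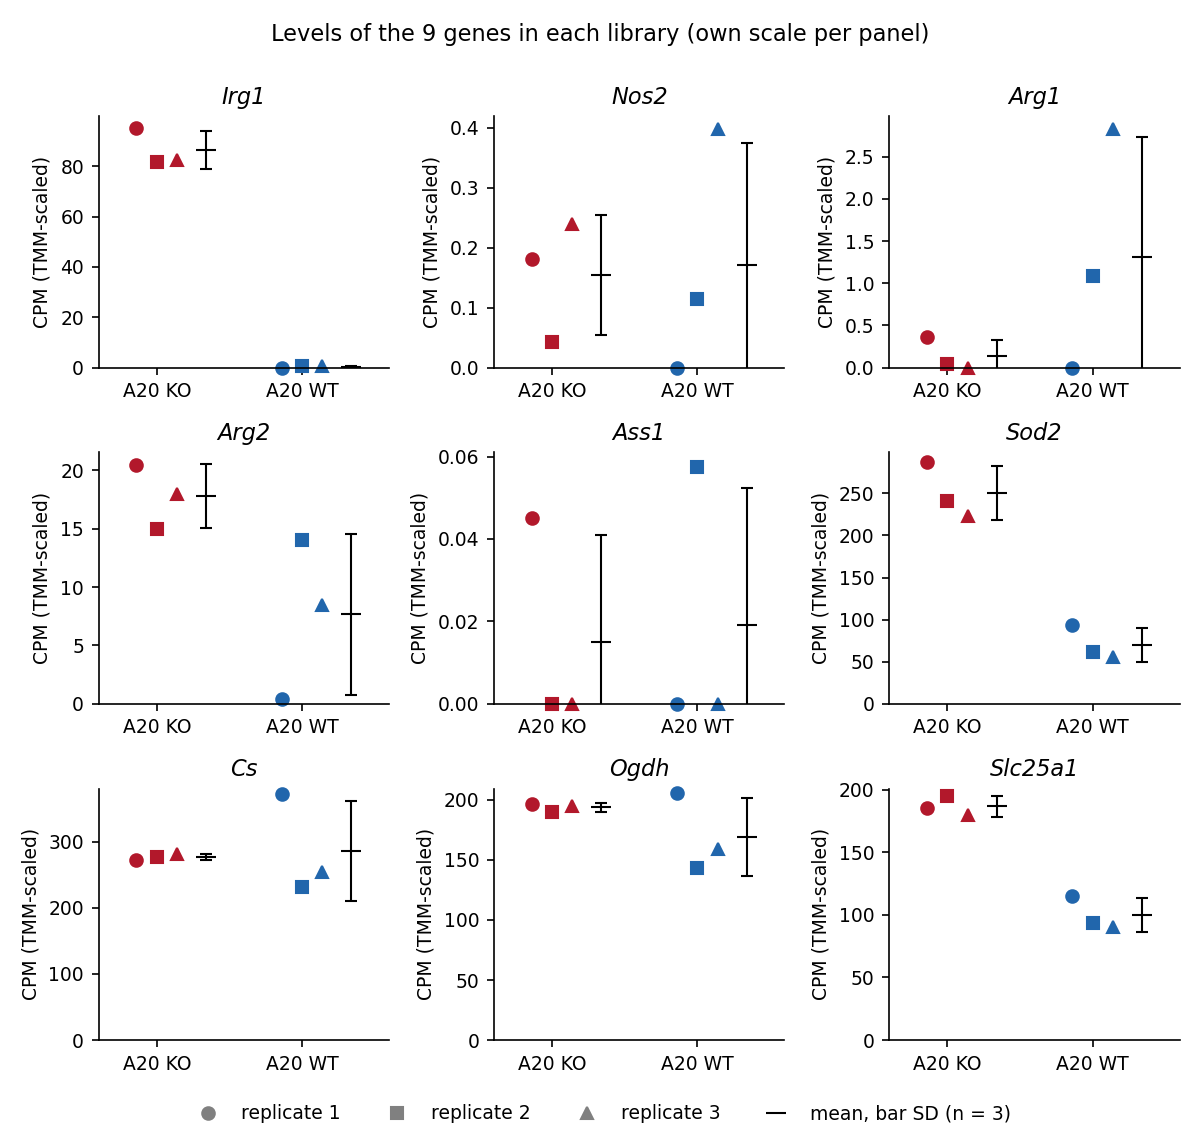
Level of each of the 9 genes (vertical axis, TMM-scaled CPM, own scale per panel) in the 3 A20 KO and 3 A20 WT libraries; symbols are libraries, and the horizontal bars are group means with SD, cut at 0. Irg1, Arg2, Sod2 and Slc25a1 show every KO-labelled library above every WT-labelled library, while Nos2, Arg1, Ass1, Cs and Ogdh overlap.

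Irg1, now named Acod1, encodes aconitate decarboxylase, the enzyme that makes itaconate, and was nearly silent in the WT-labelled libraries. It lies at chr14:103046977-103056573 (mm10, plus strand). It had 2111, 1887 and 1384 reads in KO-labelled libraries, against 1, 10 and 14 reads in WT-labelled libraries. Scaled, these were 95.1, 81.7 and 82.6 CPM against 0.042, 0.574 and 0.695 CPM. Every KO-labelled library was high, and every WT-labelled library was below 1 CPM; the floor of 3 reads was 0.125 to 0.172 CPM there. Group means were 86.5 ± 7.51 CPM and 0.437 ± 0.348 CPM (SD, n = 3 each), a ratio of 198, and the fitted log2 fold change was 7.68 (SE 0.54). Within replicate 1 the ratio was 2279, but it rests on 1 WT-labelled read and its 95% counting interval was 409 to 90074. Within replicates 2 and 3 the ratio was 128 (86.2 to 201). Counting intervals are exact binomial ones and cover counting error only. Ddx3y, used above to tell sex, had 0, 14 and 12 reads in WT-labelled replicates 1, 2 and 3. In KO-labelled replicates 1, 2 and 3 it had 1743, 1898 and 1495 reads. The origin of the few WT-labelled reads of Irg1 and Ddx3y was not tested, and the Irg1 ratios depend on it.

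**Figure D2:**
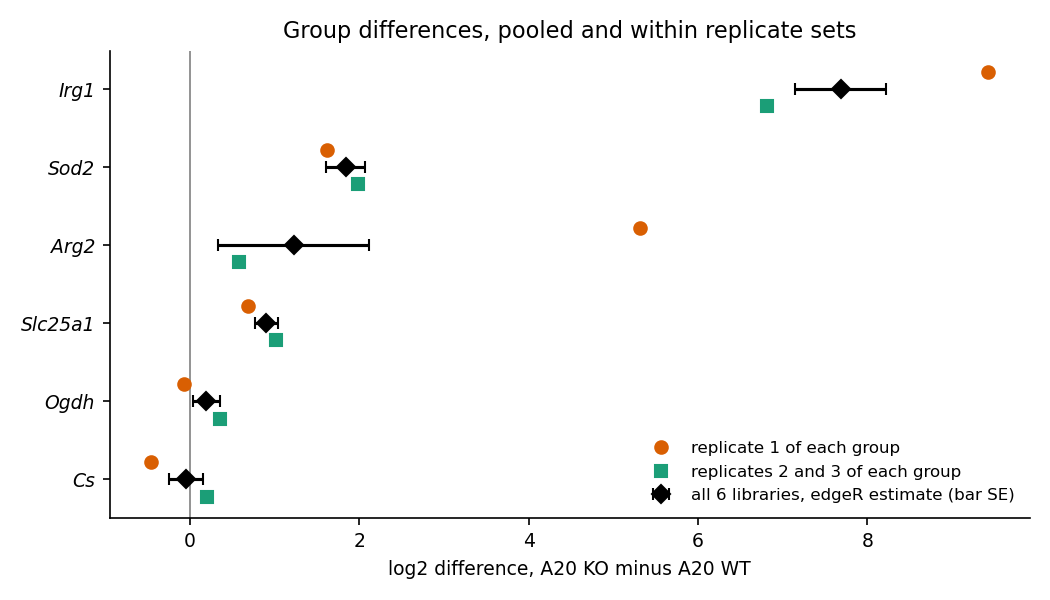
Difference between A20 KO and A20 WT libraries (horizontal axis, log2) for the 6 members that passed the low-count filter; diamonds are the edgeR estimates over all 6 libraries with SE, circles replicate 1 of each group and squares replicates 2 and 3. Irg1, Sod2 and Slc25a1 lie above 0 in both replicate sets, Arg2 is at 5.32 in replicate 1 and at 0.58 in replicates 2 and 3, and for Cs and for Ogdh the replicate sets lie on opposite sides of 0.

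Among the arginine genes only Arg2 was well covered, and the others had at most 57 reads in any library. Arg2, the mitochondrial arginase, which splits arginine into ornithine and urea, lies at chr12:79130777-79156301 (plus strand). Its level was 20.4, 15.0 and 18.0 CPM in KO-labelled libraries and 0.417, 14.1 and 8.49 CPM in WT-labelled libraries. The groups did not overlap, yet KO-labelled replicate 2 and WT-labelled replicate 2 were close, and the very low value came from WT-labelled replicate 1, with 10 reads. The ratio of scaled reads was 48.9 within replicate 1 (95% counting interval 26.4 to 103) and 1.47 within replicates 2 and 3 (1.29 to 1.66). Means were 17.8 ± 2.72 and 7.66 ± 6.86 CPM (SD, n = 3 each), with a fitted log2 fold change of 1.22 (SE 0.90), which was not called. Without WT-labelled replicate 1 the log2 fold change was 0.66, and without WT-labelled replicate 2 it was 1.99, neither called. It was 2.45 (SE 1.03) by limma-voom and 0.53 in replicates 2 and 3 alone, also not called. On the opposite strand Vti1b and a second gene overlap 28.1% of the exon bases of Arg2, and the strand setting of the counting is not given. Reads of the shared bases could thus have been added to Arg2 or left out of it, which was not tested. Vti1b had 83.8 ± 11.7 CPM in KO-labelled and 57.3 ± 12.4 CPM in WT-labelled libraries. The lowest Arg2 count, 10, was in WT-labelled replicate 1, which had 1393 Vti1b reads.

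Arg1, the cytosolic arginase of alternatively activated macrophages, lies at chr10:24915221-24927484 (minus strand). It had 8, 1 and 0 reads in KO-labelled libraries and 0, 19 and 57 reads in WT-labelled libraries. The replicate sets ran in opposite directions. Replicate 1 had 8 KO-labelled reads against none, with a lower 95% counting limit of 1.84 on the ratio. Replicates 2 and 3 had 1 KO-labelled read against 76, a ratio of 0.0124 (95% counting interval 3.1e-04 to 0.0712). Group means were 0.135 ± 0.197 CPM in KO-labelled and 1.31 ± 1.43 CPM in WT-labelled libraries (SD, n = 3 each), and the groups overlapped. Under some alternatives Arg1 was fitted. It was called lower without WT-labelled replicate 1 (log2 fold change −3.73) and in replicates 2 and 3 alone (−6.00), the fits that drop the WT-labelled library without reads. It was not called without KO-labelled replicate 1, 2 or 3 (−5.40, −2.72 and −2.66), with replicates 2 and 3 summed (−2.50) or with no filter (−3.15).

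Nos2, the inducible nitric oxide synthase of inflammatory macrophages, lies at chr11:78920787-78960254 (plus strand). It had 4, 1 and 4 reads in KO-labelled libraries and 0, 2 and 8 reads in WT-labelled libraries, so the groups overlapped at a level where 3 reads are the floor. The ratio of summed reads, scaled for depth, was 0.892 with a 95% counting interval of 0.321 to 2.44, and a difference was not detectable at this depth. Within replicate 1 there were 4 KO-labelled reads against none, with a lower 95% counting limit of 0.713 on the ratio. Replicates 2 and 3 had 5 KO-labelled against 10 WT-labelled reads, a ratio of 0.471 (95% counting interval 0.126 to 1.51). Both intervals include a ratio of 1, so neither replicate set showed a direction. Ass1, which makes argininosuccinate from citrulline and so returns citrulline to arginine, lies at chr2:31470207-31520672 (plus strand). It had 1 read in 1 library of each group and none elsewhere. Of the 31-base words of Ass1 transcripts, 43.1% also occur in other genes, among them the copy Gm5424, which had no read in any library, so reads that match both could have been left out.

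Sod2, the manganese superoxide dismutase of the mitochondrial matrix, lies at chr17:13006846-13040063 (plus strand). Its level was 286.5, 241.2 and 223.2 CPM in KO-labelled libraries and 93.1, 61.1 and 55.8 CPM in WT-labelled libraries. Replicate 1 was the highest in both groups, and the lowest KO-labelled library was still above the highest WT-labelled library. Means were 250.3 ± 32.6 and 70.0 ± 20.2 CPM (SD, n = 3 each), with a fitted log2 fold change of 1.84 (SE 0.22). The log2 difference was 1.62 within replicate 1 and 1.99 within replicates 2 and 3. Of the 31-base words of Sod2, 26.7% also occur in other annotated transcripts. This is a share of words and not of reads, and its effect on the count was not tested.

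Among the branch-point genes, the citrate carrier differed and the cycle enzymes overlapped. Slc25a1, which exports citrate from the mitochondrion for acetyl-CoA production in the cytosol, lies at chr16:17925223-17928219 (minus strand). It had 184.9, 195.3 and 179.4 CPM in KO-labelled libraries and 115.1, 93.8 and 90.6 CPM in WT-labelled libraries. All KO-labelled values were above all WT-labelled values, with means of 186.5 ± 8.06 and 99.8 ± 13.4 CPM (SD, n = 3 each) and a fitted log2 fold change of 0.90 (SE 0.13). Within replicate 1 the log2 difference was 0.68, and within replicates 2 and 3 it was 1.02. With replicates 2 and 3 summed into 1 sample per group, Slc25a1 kept a log2 fold change of 0.89 but was not called.

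Cs, citrate synthase, which condenses acetyl-CoA and oxaloacetate at the entry of the cycle, lies at chr10:128337734-128362479 (plus strand). Its level was 271.7, 276.8 and 281.6 CPM in KO-labelled libraries and 371.9, 230.7 and 254.5 CPM in WT-labelled libraries. The KO-labelled values lay inside the WT-labelled range, which WT-labelled replicate 1 stretched upwards. The fitted log2 fold change was −0.05 (SE 0.20); without WT-labelled replicate 1 it was 0.19 and not called. The log2 difference was −0.45 within replicate 1 and 0.20 within replicates 2 and 3. Ogdh, the first component of the 2-oxoglutarate dehydrogenase complex that makes succinyl-CoA, lies at chr11:6291633-6356642 (plus strand). It had 196.5, 189.7 and 195.2 CPM in KO-labelled libraries and 205.9, 143.0 and 159.1 CPM in WT-labelled libraries. The groups overlapped through WT-labelled replicate 1, and the fitted log2 fold change was 0.19 (SE 0.16). Without that library Ogdh had a log2 fold change of 0.36 and was called higher. Within replicate 1 the log2 difference was −0.07, against 0.35 within replicates 2 and 3.

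The order of the genes by level per length differed between the groups mainly in the place of Irg1. On the RPKM scale, the CPM value per kilobase of merged exons, KO-labelled libraries had Slc25a1 at 86.2 ± 3.72, Cs at 47.9 ± 0.854, Ogdh at 35.5 ± 0.660, Irg1 at 33.0 ± 2.86, Sod2 at 25.01 ± 3.26 and Arg2 at 12.5 ± 1.91 RPKM (SD, n = 3). Of these 6, the neighbours Ogdh and Irg1 overlapped and the other neighbours did not. Below them Arg1, Nos2 and Ass1 averaged 0.060, 0.035 and 0.0062 RPKM and overlapped. In WT-labelled libraries Cs had 49.4 ± 13.1, Slc25a1 46.1 ± 6.18, Ogdh 31.03 ± 5.99, Sod2 6.99 ± 2.02, Arg2 5.36 ± 4.81, Arg1 0.587 and Irg1 0.167 RPKM. Nos2 (0.039 RPKM) and Ass1 (0.0079 RPKM) were the lowest. Cs and Slc25a1 overlapped there, as did each pair of neighbours from Sod2 down. Irg1 was thus the fourth member by level in the KO-labelled libraries and the seventh in the WT-labelled libraries. The merged exons of Sod2 span 10008 bases, so its level per length depends on long annotated isoforms.

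Across the 6 libraries, the genes whose log2 levels followed Irg1 most closely included Nfkbia, Lcp2, Fam63a and Mctp1. Nfkbia, the inhibitor that holds NF-κB in the cytoplasm and is itself an NF-κB target, had a Pearson r of 1.00 with Irg1 over 6 libraries, at 201.8 ± 8.60 CPM in KO-labelled and 39.7 ± 10.3 CPM in WT-labelled libraries. Lcp2, an adaptor of immune receptor signalling, had 224.9 ± 7.35 against 63.7 ± 13.4 CPM, Fam63a 155.1 ± 0.792 against 51.4 ± 10.8 CPM and Mctp1 89.2 ± 6.53 against 22.5 ± 5.10 CPM in KO-labelled and WT-labelled libraries. The 6 libraries share the group split and the offset of WT-labelled replicate 1.

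**Figure D3:**
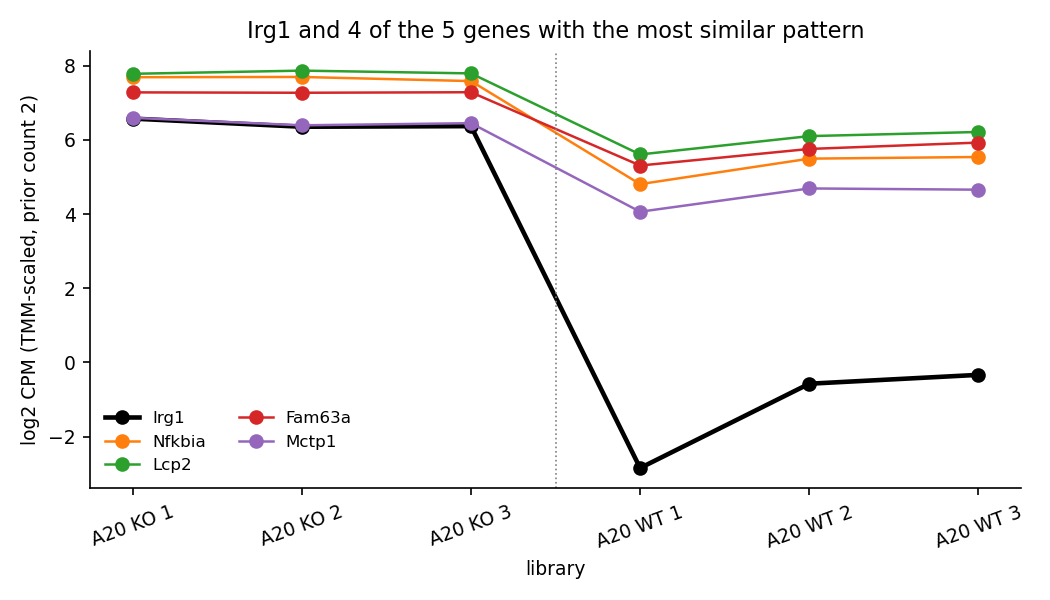
log2 CPM (vertical axis, TMM-scaled, prior count 2) of Irg1 and 4 of the 5 genes most like it in each library (horizontal axis, 3 A20 KO libraries, then 3 A20 WT libraries; lines only join the points of a gene). All of the plotted genes are higher in every KO-labelled library and lowest in WT-labelled replicate 1, and Irg1 has the widest gap.

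For the other tested members the closest genes by the same measure were Nek5, Ifngr1 and Gnai3 for Sod2, Commd5, Otud7b and Gphn for Slc25a1, Pde8b, Gtpbp8 and Dram2 for Arg2, Wdr77, Rrp12 and Ints5 for Cs, and Mrps18a, Tmem55a and Aars for Ogdh. Nek5 had only 16, 14 and 8 reads in KO-labelled and 2, 0 and 0 reads in WT-labelled libraries, the latter below the floor of 3 reads. Ifngr1, a chain of the interferon-gamma receptor, had r = 1.00 with Sod2 over the 6 libraries, at 278.8 ± 13.8 CPM in KO-labelled and 175.2 ± 16.8 CPM in WT-labelled libraries. Gphn, the gephyrin scaffold gene, followed Slc25a1 (r = 1.00) with a far wider gap, 50.6 ± 3.13 CPM against 2.50 ± 1.74 CPM in KO-labelled and WT-labelled libraries. Among the members themselves, Sod2 and Slc25a1 ran most alike (r = 0.99 over the 6 libraries), and Arg2 and Cs ran most oppositely (r = −0.83). WT-labelled replicate 1 was the lowest library for Arg2 and the highest for Cs.

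The other genes of these pathways were read from 6 lists, with the calls of the same fit. Over all 12126 tested genes the median log2 fold change was −0.04, with 1660 called higher and 1656 lower. Adjusted p-values of the called list genes ran from 2.85e-04 (Me1) to 0.0468 (Ticam1) by edgeR. The TCA cycle list left out Cs and Ogdh. It also held the assembly factors Sdhaf1, Sdhaf2 and Sdhaf4 and the cytosolic enzymes Aco1, Idh1 and Mdh1. Of its 22 genes 1 rose, 1 fell and 20 did not pass, with a median of 0.10 and 9.09% called. Dlst, the core subunit of the complex that Ogdh belongs to, rose to 246.0 ± 13.5 CPM in KO-labelled libraries, against 168.7 ± 25.3 CPM in WT-labelled libraries (adjusted p = 0.0309 by edgeR). Idh2, the mitochondrial NADP-dependent isocitrate dehydrogenase, fell to 124.0 ± 6.75 CPM in KO-labelled libraries, against 196.0 ± 41.5 CPM in WT-labelled libraries (adjusted p = 0.0268 by edgeR). The Dlst call did not hold on removal of any 1 library other than WT-labelled replicate 1 (adjusted p from 0.0869 to 0.0971) and the Idh2 call without any 1 KO-labelled library (0.0821 to 0.0987). With replicates 2 and 3 only, 10 were higher and 2 lower, beside 52.9% of all genes called in that fit, and the fit that left out WT-labelled replicate 1 gave 9 and 2 (42.8% of all genes called).

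**Figure D4:**
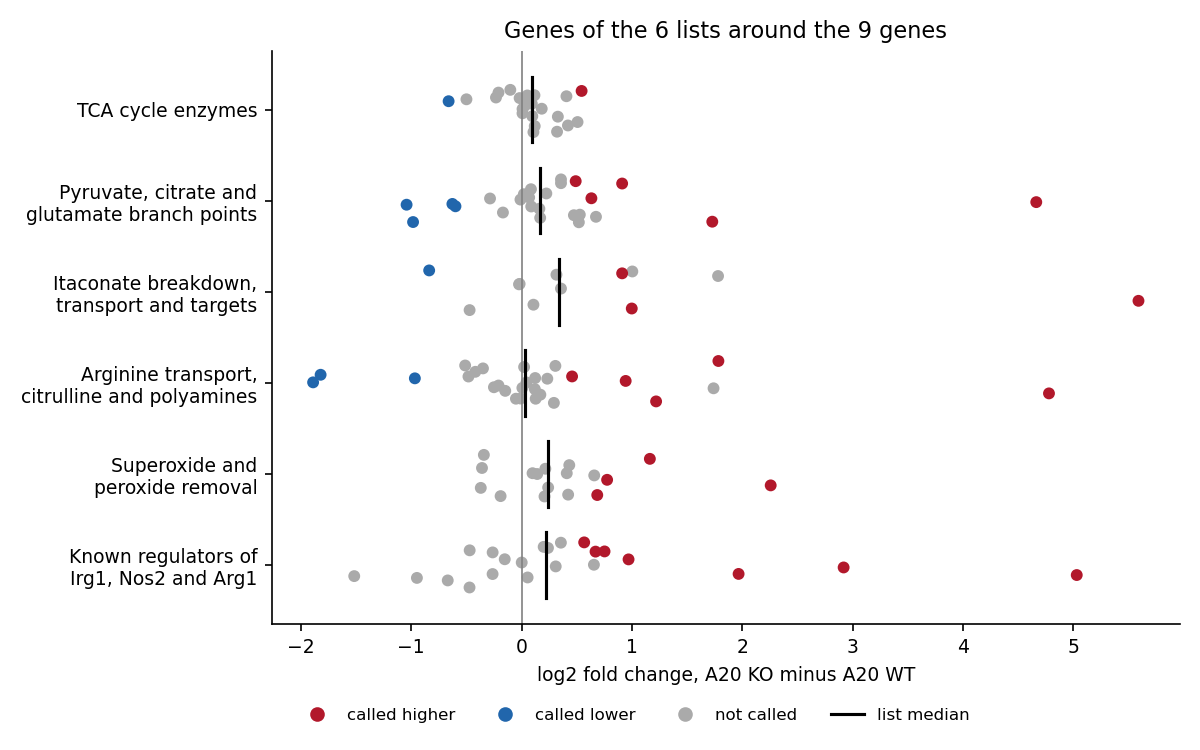
log2 fold change, A20 KO minus A20 WT (horizontal axis), of each tested gene in the 6 lists; red and blue points passed edgeR's test at an adjusted p under 0.05, grey points did not, and black bars are list medians. The medians lie between 0.03 and 0.34, and points far to the right include Abcg2, Pparg, Slc7a2 and Me1. Of these, Abcg2, Pparg and Slc7a2 passed the low-count filter only through their KO-labelled libraries.

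Genes that feed the cycle or draw from it at pyruvate, citrate and glutamate went both ways. Of 25 tested, 5 rose, 4 fell and 16 did not pass (median 0.17, 36% called). Me1, the cytosolic malic enzyme that makes NADPH, rose to 44.1, 38.7 and 34.3 CPM in KO-labelled libraries, against 2.38, 0.746 and 1.39 CPM in WT-labelled libraries (log2 fold change 4.66, SE 0.39; adjusted p = 2.85e-04 by edgeR). Acly, which cleaves the citrate exported by Slc25a1 into acetyl-CoA, rose to 579.5, 610.3 and 578.9 CPM in KO-labelled libraries, against 387.2, 283.2 and 269.9 CPM in WT-labelled libraries (0.91, SE 0.18; adjusted p = 0.00989 by edgeR). The groups did not overlap for either gene. Pdhb, a subunit of pyruvate dehydrogenase, rose to 169.5 ± 4.40 CPM in KO-labelled libraries, against 109.3 ± 12.9 CPM in WT-labelled libraries. The transaminase gene Gpt2 fell to 31.8 ± 3.83 CPM in KO-labelled libraries, against 62.8 ± 2.77 CPM in WT-labelled libraries. Pdk3, a kinase that inhibits pyruvate dehydrogenase, fell by 0.60 and Pdp1, the phosphatase that reactivates it, fell by 1.04 on the log2 scale. The remaining calls, named after their values were seen, were Pdha1 (0.49) and pyruvate carboxylase Pcx (1.73), which rose, and the aspartate-glutamate carrier gene Slc25a13, which fell by 0.63.

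Me1, Acly and Gpt2 were called whichever library was left out. Pdhb was no longer called without KO-labelled replicate 3 (adjusted p = 0.0534), Pdk3 and Pdp1 without KO-labelled replicate 2 or 3 (0.0541 to 0.0594), Pdha1 without replicate 2 or 3 of either group (0.0762 to 0.123), and Pcx and Slc25a13 without any KO-labelled library or without WT-labelled replicate 3 (0.0581 to 0.103). The fit of replicates 2 and 3 called 12 of these genes higher and 4 lower (64%), beside 52.9% of all genes called in that fit.

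Genes that break down, move or respond to itaconate numbered 12 tested, of which 3 rose, 1 fell and 8 did not pass (median 0.34, 33.3% called). Abcg2, an efflux pump reported to export itaconate from macrophages, rose to 17.3, 15.2 and 14.5 CPM in KO-labelled libraries, against 0.543, 0.344 and 0.050 CPM in WT-labelled libraries (log2 fold change 5.59, SE 0.56, adjusted p = 6.49e-04 by edgeR), with no overlap. Abcg2 passed the low-count filter only through its KO-labelled libraries, so its adjusted p is a description only. Nfe2l2, the antioxidant factor released when itaconate modifies Keap1, rose to 329.2, 271.5 and 275.0 CPM in KO-labelled libraries, against 102.7, 154.1 and 181.4 CPM in WT-labelled libraries (1.00, SE 0.22; adjusted p = 0.0159 by edgeR). Acly, already described, is also in this list. Auh, an enzyme shared by leucine and itaconate breakdown, fell to 15.2 ± 0.828 CPM in KO-labelled libraries, against 27.2 ± 8.16 CPM in WT-labelled libraries (adjusted p = 0.0418 by edgeR). Clybl, which completes itaconate breakdown, did not pass (15.7 ± 1.42 CPM in KO-labelled and 21.8 ± 3.40 CPM in WT-labelled libraries; named after its value was seen). Abcg2 and Acly were called whichever library was left out. Nfe2l2 was no longer called once KO-labelled replicate 1 was left out (adjusted p = 0.0613) or WT-labelled replicate 2 was (0.0568), nor was Auh on removal of any 1 library other than WT-labelled replicate 1 (0.105 to 0.127).

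Arginine uptake, the citrulline cycle, the nitric oxide cofactor and polyamine genes went both ways, with 5 of 28 tested higher, 3 lower and 20 not passing (median 0.03, 28.6% called). Slc7a2, an arginine transporter that is induced in activated macrophages, had 69, 50 and 37 reads in KO-labelled libraries and 0, 5 and 0 reads in WT-labelled libraries (adjusted p = 0.0129 by edgeR). Slc7a2 passed the low-count filter only through its KO-labelled libraries, so its adjusted p is a description only. Asl, which acts after Ass1 and releases arginine, rose to 74.0 ± 2.26 CPM in KO-labelled libraries, against 53.9 ± 3.49 CPM in WT-labelled libraries. Smox, spermine oxidase, rose to 21.3 ± 5.23 CPM in KO-labelled libraries, against 6.21 ± 3.15 CPM in WT-labelled libraries. The genes for the first enzyme of tetrahydrobiopterin synthesis and its regulator, Gch1 (log2 fold change 1.22) and Gchfr (0.94), also rose and were named after their values were seen. Slc7a7, a carrier that exports cationic amino acids, fell to 1.92 ± 0.444 CPM in KO-labelled libraries, against 7.16 ± 0.729 CPM in WT-labelled libraries. The proline synthesis gene Pycr1 fell to 4.14 ± 1.33 CPM in KO-labelled libraries, against 14.6 ± 2.50 CPM in WT-labelled libraries.

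Slc7a7 and Pycr1 were called whichever library was left out. Slc7a2 was no longer called when KO-labelled replicate 1 or 3 was left out (adjusted p = 0.0546 and 0.0503), Smox and Gch1 without any KO-labelled library or without WT-labelled replicate 3 (0.0510 to 0.122), and Asl and Gchfr on removal of any 1 library other than WT-labelled replicate 1 (0.0614 to 0.170). The fit of replicates 2 and 3 called 13 of the 28 tested genes higher and 3 lower (57.1%), beside 52.9% of all genes called in that fit. Sat1, the spermidine acetyltransferase, named after its value was seen, did not overlap between groups (695.0 ± 167.5 CPM in KO-labelled and 208.2 ± 146.0 CPM in WT-labelled libraries) but had an adjusted p of 0.0676 by edgeR. Oaz1 and Amd1, genes that most cells express, had at most 3 reads in any library; 24.0% and 82.8% of their 31-base words occur in other transcripts. The cause of these low counts was not tested.

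Genes that remove superoxide and peroxide, apart from Sod2, rose in 4 of 17 tested cases, and 13 did not pass (median 0.24, 23.5% called). Prdx5, a peroxiredoxin of mitochondria and peroxisomes, rose to 1416.4, 894.9 and 888.0 CPM in KO-labelled libraries, against 153.3, 282.4 and 233.4 CPM in WT-labelled libraries (log2 fold change 2.26, SE 0.30; adjusted p = 0.00214 by edgeR). Replicate 1 was the highest KO-labelled and the lowest WT-labelled library. Srxn1, sulfiredoxin, an NRF2 target that restores peroxiredoxins, rose to 72.4 ± 6.75 CPM in KO-labelled libraries, against 32.3 ± 6.76 CPM in WT-labelled libraries. Catalase (Cat) rose to 150.9 ± 5.23 CPM in KO-labelled libraries, against 93.8 ± 6.25 CPM in WT-labelled libraries. Txnrd2, the mitochondrial thioredoxin reductase, rose to 24.1 ± 1.14 against 14.0 ± 3.65 CPM in KO-labelled and WT-labelled libraries, but its call was lost on removal of any 1 library other than WT-labelled replicate 1 (adjusted p from 0.0814 to 0.111 by edgeR). The fit of replicates 2 and 3 called 10 of the 17 higher (58.8%), beside 52.9% of all genes called in that fit.

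Of 22 known regulators of Irg1, Nos2 and Arg1 in macrophages, 7 rose and 15 did not pass (median 0.22, 31.8% called). Tlr2, a receptor for bacterial lipoproteins, rose to 348.9, 230.9 and 233.1 CPM in KO-labelled libraries, against 21.7, 45.3 and 40.6 CPM in WT-labelled libraries (log2 fold change 2.92, SE 0.32; adjusted p = 9.53e-04 by edgeR). Cebpb, a transcription factor that acts on Arg1 and inflammatory genes, rose to 279.4 ± 39.7 CPM in KO-labelled libraries, against 71.5 ± 34.2 CPM in WT-labelled libraries. Pparg, a nuclear receptor of alternatively activated macrophages, had 106, 61 and 48 reads in KO-labelled libraries and 0, 1 and 5 reads in WT-labelled libraries (adjusted p = 0.00519 by edgeR). Pparg passed the low-count filter only through its KO-labelled libraries, so its adjusted p is a description only. The interferon-gamma receptor genes Ifngr1 (log2 fold change 0.67) and Ifngr2 (0.97) rose, as did Stat6 (0.75), the factor that interleukin-4 activates on Arg1. Ticam1, the adaptor TRIF, was the seventh (0.57) and was named after its value was seen. Levels of the NF-κB subunit genes Nfkb1 and Rela and of Irf1, also named after their values were seen, did not pass, with log2 fold changes of −0.15, 0.20 and −0.26.

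Tlr2, Cebpb, Pparg and Ifngr1 were called whichever library was left out. Stat6 was no longer called without KO-labelled replicate 1 or 2 or WT-labelled replicate 2 (adjusted p from 0.0571 to 0.0720 by edgeR), and Ifngr2 and Ticam1 on removal of any 1 library other than WT-labelled replicate 1 (0.0516 to 0.138). The fit of replicates 2 and 3 called 8 of the 22 higher and 8 lower (72.7%), beside 52.9% of all genes called in that fit. Leaving out WT-labelled replicate 1 gave 8 and 7 (68.2%), beside 42.8% of all genes.

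Other settings also ended some of these calls in the lists. Summing replicates 2 and 3 into 1 sample per group left 6 of the called list genes past the threshold, Me1, Abcg2, Prdx5, Srxn1, Cebpb and Tlr2, which were called under all 16 alternatives; that fit called 8.44% of all genes. Without composition scaling Pdha1, Auh, Ifngr2 and Ticam1 did not pass (adjusted p from 0.0520 to 0.0748 by edgeR), and Ticam1 was also lost under both other scalings (0.0524 and 0.0616). Auh did not pass with limma-voom (adjusted p = 0.0710), Gchfr without a low-count filter (0.0662 by edgeR) or Gch1 in replicates 2 and 3 alone (0.0521 by edgeR).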

How the data were processed

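Polyadenylated RNA was made into libraries with a stranded TruSeq kit, per the labels' protocols. The deposited values are raw counts of reads for each gene in each library, which the authors did not normalize. The submitters' processing notes name FastQC 0.11.7, HISAT2 2.0.5 (a read aligner), featureCounts 1.5.2 (a read counter) and the mouse build mm10. Annotation version and strand setting were not given in the sources used here.

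Of 24062 genes, 7384 had no read; edgeR 4.0.16 (R 4.3.3) kept 12126 with its default low-count filter, scaled them by TMM and tested KO-labelled minus WT-labelled libraries with the robust quasi-likelihood test and Benjamini-Hochberg adjustment at 0.05 over all tested genes. The scripts were tested on simulated data. A count of 3 per library was the floor for genes at 0. Alternatives were other scalings and filters, DESeq2 1.42.0, limma-voom (limma 3.58.1), a replicate block, each library left out, replicates 2 and 3 alone, and replicates 2 and 3 summed.

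The members and gene lists were chosen with earlier results of these data known. Of 142 list symbols, 141 were found. Named were the 9 members, Tnfaip3, up to 6 called genes per list in order of p, and the 5 (Irg1) or 3 (other tested members) genes with the highest r; others are marked as named after their values were seen. Positions come from the GENCODE annotation of mm10 and promoter windows from RefSeq (GRCm38.p6). Word sharing between transcripts and motif matches were computed in Python 3.11.15. Some genes that the rule or the lists include are not reported here.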

Additional observations from a re-analysis of the deposited data

How the results depend on the processing

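Irg1 and Sod2 were called higher under all 16 alternatives, and Slc25a1 under all but the summing of replicates 2 and 3. The log2 fold change of Irg1 ran from 7.07 to 8.27 and that of Sod2 from 1.70 to 2.10 when single libraries were left out. That of Cs changed sign, at 0.19 without WT-labelled replicate 1 and 0.19 in replicates 2 and 3 alone; it ranged from −0.18 to 0.19 over the libraries left out. That of Ogdh was −0.067 within replicate 1 alone, a setting chosen after seeing the data. Numbers called, in the order TCA cycle, branch points, itaconate, arginine, peroxide and regulators, were 2, 9, 4, 8, 4 and 7 in the main fit. Leaving out single libraries gave 0 to 11, 3 to 16, 2 to 10, 3 to 14, 3 to 10 and 4 to 15, with 939 to 2712 genes called higher and 916 to 2568 lower over all tested. Replicates 2 and 3 alone gave 12, 16, 11, 16, 10 and 16, with 3149 genes higher and 3309 lower. Replicates 2 and 3 summed gave 0, 1, 1, 0, 2 and 2, with 543 higher and 518 lower. DESeq2 called 4 TCA cycle genes, and limma-voom 3. With the replicate block edgeR called 0 TCA cycle, 2 itaconate, 2 arginine and 4 regulator genes, and 989 genes higher and 1034 lower. Deviations of same-numbered libraries correlated at −0.006, −0.055 and 0.052, so no pairing by number was seen over all tested genes. Such correlations cannot tell whether same-numbered libraries shared a batch. Gapdh was high in replicate 1 of both groups (2716 CPM in KO-labelled and 2645 CPM in WT-labelled), and a shared batch was not tested. Under that block 16 of the 33 called list genes did not pass (edgeR adjusted p from 0.0549 to 0.129), among them Idh2, Dlst, Pdha1, Slc25a13, Auh, Nfe2l2, Slc7a2, Asl, Gch1, Gchfr, Smox, Txnrd2, Stat6, Ifngr2 and Ticam1. The Arg2 log2 fold change was 1.83 with the block, 2.45 by limma-voom and 1.69 with replicates 2 and 3 summed, not called in any. At an unadjusted p under 0.05 edgeR found 3 of 22 TCA cycle genes with the block, beside 4118 of all 12126 tested genes. With summed replicates it found 1 of 22 TCA cycle and 8 of 28 arginine genes, beside 3225 of 12569. Without a KO-labelled library it found 2 to 3 TCA cycle genes, beside 3784 to 4093 over all tested genes. In each of these fits 0 TCA cycle genes were called. No member's p is given. The cause of these shifts was not tested. Depth limits Nos2, Arg1 and Ass1, where 3 reads are 0.125 to 0.179 CPM.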
